A study of Sus scrofa with 12 samples.

Results

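Porcine induced pluripotent stem (iPS) cells on day 4 of endothelial induction (IEC4) were compared with the same kind of culture on day 2 (IEC2), with 3 biological replicates (A, B and C) at each stage. All 6 of these libraries of the stage comparison were used, out of 12 in the series, and the other 6 (IEC12 and the porcine endothelial line AOC) were left out of the test. For both stages, iPS cells on Matrigel had been moved to a medium for endothelial differentiation that lacks FGF2 and LIF, and received CHIR99021, an inhibitor of GSK3β that activates WNT signalling, until day 2. IEC2 was collected at that point. IEC4 then had a further period with BMP4, FGF2 and VEGF, so that the stages differ in time and in the factors added, and these cannot be told apart. The labels call the cells of both stages induced endothelial cells and give the replicates as biological, without saying whether each came from an induction of its own. The p-values measure the spread between these libraries, which may be technical in part.

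In the embryo, WNT signals help to form the primitive streak and its mesoderm, BMP4 directs cells towards ventral and extraembryonic mesoderm and also towards amnion and trophoblast, and VEGF acts through its receptor KDR on the precursors of endothelium. Epithelial cells are held together by cadherin, claudins, desmosomes and keratin filaments, and cells that enter the mesoderm usually lose part of this machinery. Endothelial cells are known by junction and receptor genes such as PECAM1, CDH5, TEK and KDR.

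RNA had been amplified by Smart-Seq2, and the level of a gene is given as FPKM (fragment count per kilobase of transcript after scaling to library size). Of 19681 Ensembl genes, 10111 reached 1 FPKM in 3 or more of the 6 libraries and were tested, and 8535 of these had a symbol. Genes that reached 1 FPKM numbered 8829 to 9484 per library in IEC2 and 9909 to 10467 in IEC4. The number of reads is unknown, and the steps of low values gave relative depths of 1.04 to 1.26 against IEC2A. Libraries of the same stage correlated across genes at r = 0.974 to 0.987 and libraries of different stages at 0.926 to 0.944, where genes are not independent replicates. IEC4C stood apart from IEC4A and IEC4B: 342 genes lay more than 1 log2 unit above the mean of the other pair and 84 below, against 66 and 248 for IEC4A and 89 and 127 for IEC4B. By more than 2 log2 units, 64 genes were higher in IEC4C, compared with 6 in IEC4A and 6 in IEC4B. At day 2 IEC2A had 48 genes above and 368 below by more than 1 log2 unit. The share of FPKM from mitochondrial genes was 1.95% to 2.19% in IEC2 and 4.28%, 5.11% and 7.10% in IEC4A, IEC4B and IEC4C.

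The endothelial name of the cells was set against its markers. CDH5, the cadherin of endothelial junctions, was listed at 0 in all 6 libraries. PECAM1, another junction molecule, had 0.268, 0.284 and 0.157 FPKM in IEC2 and 0.554, 0.519 and 0.489 FPKM in IEC4, whereas the AOC libraries had 91.7 to 131 FPKM. TEK, the angiopoietin receptor, did not exceed 0.536 FPKM at either stage. Over the whole list of endothelial and haemogenic genes, 10 of 38 found members were tested. Of these, 2 were called higher and 2 lower (20% each), beside 14.3% and 4.98% of all tested genes. The summed level was 31.7 to 39.6 FPKM in IEC2 and 26.6 to 35.5 FPKM in IEC4. KDR, the VEGF receptor, was above 2 FPKM in each IEC2 library, more than the 1.31 to 1.46 FPKM of AOC, and did not exceed 0.302 FPKM in IEC4. CDH5, PECAM1 and TEK were thus at or near 0 at both stages and KDR was not at day 2, and the cells are called IEC2 and IEC4 below by their day of induction. VWF, POU5F1, SOX2, TBXT and SP5 were not matched by symbol and are not analysed here.

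A gene was called when its Benjamini-Hochberg adjusted p in limma was under 0.05 and it changed at least 2-fold on the log2(FPKM + 1) scale, on which a change of a low gene is understated. On this rule 1448 genes were higher at day 4 (14.3% of those tested) and 504 were lower (4.98%), and in 1438 and 498 of these the libraries of the stages did not overlap. Over all tested genes, 36.1% were higher and 18.3% lower in IEC4 without overlap, called or not. Together 1952 genes (19.3%) were called, and rises made up 74.2% of the calls. Over all tested genes the log2 fold change had a median of 0.20, and after median-of-ratios scaling, which brought it to 0.02, there were 1120 rises (11.1%) and 769 falls (7.61%), so that rises were 59.3% of the calls. All 504 falls were also called on that scale, as were 1120 of the 1448 rises. With the limits the study set for iPS cells against AOC (p and q under 0.001 and a log2 change above 3 in size), 94 genes were higher (0.93%) and 21 were lower (0.208%).

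**Figure D1:**
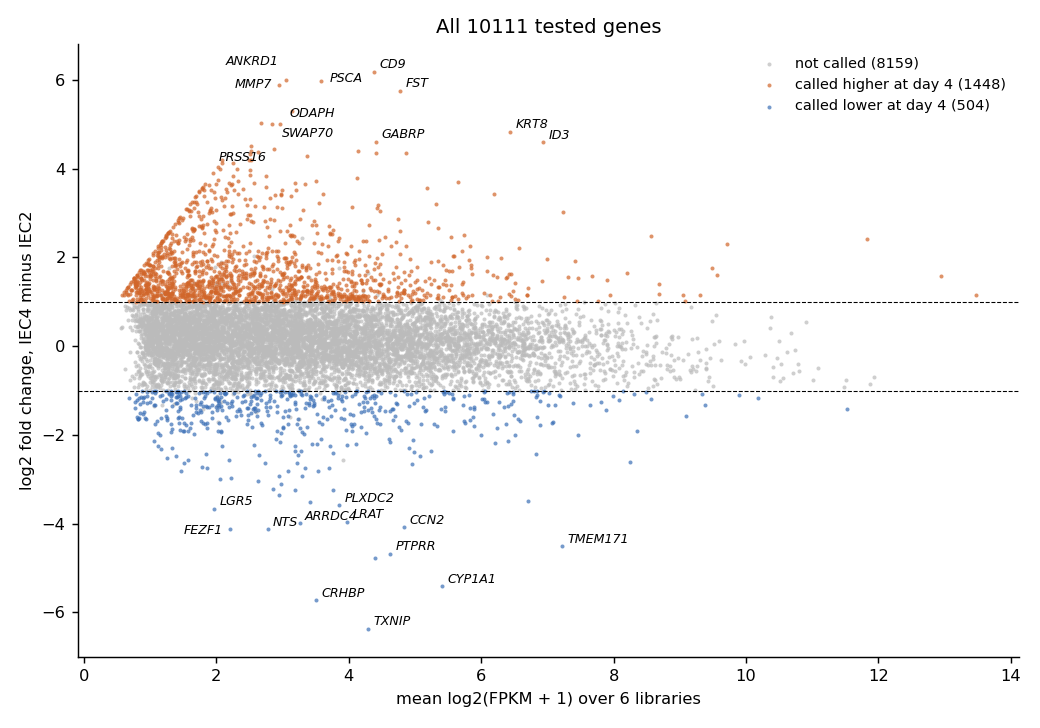
Log2 fold change of IEC4 minus IEC2 (vertical axis) against the mean log2(FPKM + 1) over the 6 libraries (horizontal axis) for the 10111 tested genes, with the 1448 genes called higher in orange and the 504 called lower in blue. The dashed lines mark a 2-fold change, and the labelled genes are 11 of the 12 largest rises and the 12 largest falls, from CD9 at 6.18 to TXNIP at -6.37.

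Genes of epithelial cells and of the cell surface led the rises. CD9, a tetraspanin that organises membrane proteins, had 3.49, 0.759 and 0.856 FPKM in IEC2A, IEC2B and IEC2C (the order of libraries used throughout) and 90.99, 144 and 418 FPKM in IEC4A, IEC4B and IEC4C (log2 fold change 6.18 ± 0.55 (SE), adjusted p = 1.06e-04). The lowest IEC4 library was far above the highest IEC2 library, and IEC4C was above the other IEC4 libraries. KRT8, a keratin of simple epithelia at chr5:18172423-18180277 of the RefSeq annotation of Sscrofa11.1, had 13.6, 20.3 and 12.9 FPKM at day 2 and 300.4, 435 and 748 FPKM at day 4 (log2 fold change 4.83 ± 0.31 (SE), adjusted p = 2.80e-05). The stages did not overlap in KRT8 either, and IEC4C was again the highest library. PSCA, a surface protein with a lipid anchor, went from 0.385, 0.545 and 0.593 FPKM to 76.8, 95.1 and 115 FPKM (log2 fold change 5.99 ± 0.18 (SE), adjusted p = 3.23e-06), with little spread between its IEC4 libraries. GABRP, the pi subunit of the GABA-A receptor, which many epithelia express, had 4.38, 2.67 and 2.997 FPKM and then 93.9, 64.6 and 184 FPKM (log2 fold change 4.61 ± 0.34 (SE), adjusted p = 4.92e-05).

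Secreted proteins and regulators made up most of the other large rises. FST, which binds and blocks activin, had 2.52, 2.49 and 3.25 FPKM in IEC2 and 203, 153 and 259 FPKM in IEC4 (log2 fold change 5.75 ± 0.20 (SE), adjusted p = 4.28e-06). ID3, an inhibitor of helix-loop-helix factors and a target of BMP signals, had 34.8, 15.7 and 24.9 FPKM and then 559, 512 and 753 FPKM (log2 fold change 4.59 ± 0.27 (SE), adjusted p = 1.99e-05). In both, all day 4 libraries were high and IEC4C was less than 2-fold above the lowest of them. ANKRD1, a nuclear cofactor that YAP and TEAD induce, was at 0, 0.0194 and 0.0919 FPKM and rose to 31.1, 53.7 and 165 FPKM (log2 fold change 5.999 ± 0.50 (SE), adjusted p = 8.62e-05). MMP7, a matrix metalloprotease of epithelia, was listed at 0 in the 3 IEC2 libraries and had 24.002, 29.4 and 275 FPKM in IEC4 (adjusted p = 6.89e-04). ODAPH, a phosphoprotein known from enamel, had 0.353, 0.307 and 0.468 FPKM and 18.1, 24.5 and 176 FPKM (log2 fold change 5.01 ± 0.71 (SE), adjusted p = 9.72e-04). These 3 genes had their highest level in IEC4C by a wide margin. SWAP70, an actin-binding signalling protein, had 0.344, 0.145 and 0.342 FPKM and 36.1, 35.1 and 49.4 FPKM (log2 fold change 4.999 ± 0.20 (SE), adjusted p = 5.34e-06), and PRSS16, a serine protease known from thymic epithelium, had 0.529, 0.963 and 0.2696 FPKM and 31.1, 33.3 and 34.8 FPKM (log2 fold change 4.45 ± 0.20 (SE), adjusted p = 7.69e-06). The last 2 genes differed little among the IEC4 libraries.

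The largest falls were of genes of redox and xenobiotic metabolism, of secreted peptides and of signalling receptors. TXNIP, which inhibits thioredoxin and limits glucose uptake, had 143, 224 and 177 FPKM in IEC2 and 0.336, 0.287 and 4.86 FPKM in IEC4 (log2 fold change -6.37 ± 0.52 (SE), adjusted p = 8.17e-05). ARRDC4, a related arrestin-domain protein, had 31.04, 44.7 and 36.8 FPKM and then 0.872, 1.71 and 1.72 FPKM (log2 fold change -3.99 ± 0.22 (SE), adjusted p = 1.67e-05). CYP1A1, a monooxygenase that the aryl hydrocarbon receptor induces, had 188, 288 and 385 FPKM and then 3.31, 7.22 and 6.75 FPKM (log2 fold change -5.41 ± 0.31 (SE), adjusted p = 1.87e-05). The 3 genes kept no overlap between stages, and only TXNIP was clearly higher in IEC4C than in the other IEC4 libraries. CRHBP, which binds corticotropin-releasing hormone, had 70.3, 92.8 and 83.02 FPKM and 0.0951, 1.28 and 0.5104 FPKM (log2 fold change -5.73 ± 0.26 (SE), adjusted p = 7.70e-06). NTS, the precursor of neurotensin, had 22.9, 22.3 and 40.8 FPKM and 0, 2.34 and 0.312 FPKM (log2 fold change -4.13 ± 0.44 (SE), adjusted p = 2.44e-04). CCN2, a matricellular protein, had 137, 102 and 114 FPKM and 2.89, 3.57 and 17.95 FPKM (log2 fold change -4.08 ± 0.52 (SE), adjusted p = 5.75e-04). CRHBP and NTS were near 0 in at least 1 IEC4 library, and CCN2 was highest in IEC4C among the day 4 libraries.

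Membrane and nuclear proteins fell as steeply. TMEM171, a membrane protein, had 779.99, 669.5 and 689 FPKM in IEC2 and 27.8, 41.3 and 23.8 FPKM in IEC4 (log2 fold change -4.51 ± 0.19 (SE), adjusted p = 5.99e-06). PTPRR, a phosphatase that acts on MAP kinases, had 140.1, 113 and 120.2 FPKM and 3.299, 6.202 and 2.73 FPKM (log2 fold change -4.68 ± 0.24 (SE), adjusted p = 1.19e-05). LGR5, a receptor for R-spondins and a target of WNT signals, had 9.19, 13.9 and 16.9 FPKM and 0.07801, 0 and 0.244 FPKM (log2 fold change -3.66 ± 0.25 (SE), adjusted p = 3.42e-05). In each of these genes the IEC4 libraries were all far below the IEC2 libraries. FEZF1, a zinc finger factor of the forebrain, had 16.2, 17.9 and 21.2 FPKM and 0.111, 0.124 and 0.112 FPKM (log2 fold change -4.11 ± 0.19 (SE), adjusted p = 7.69e-06). LRAT, which esterifies retinol, had 49.2, 65.5 and 71.1 FPKM and 1.85, 4.96 and 2.74 FPKM (log2 fold change -3.96 ± 0.27 (SE), adjusted p = 3.47e-05), and PLXDC2, a membrane protein with a plexin domain, had 41.99, 50.004 and 56.7 FPKM and 2.57, 3.21 and 3.83 FPKM (log2 fold change -3.59 ± 0.18 (SE), adjusted p = 1.04e-05). None of these falls rested on IEC4C, since their log2 fold changes without it were -4.35 for TMEM171, -4.49 for PTPRR, -3.75 for LGR5, -4.11 for FEZF1, -3.92 for LRAT and -3.696 for PLXDC2.

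**Figure D2:**
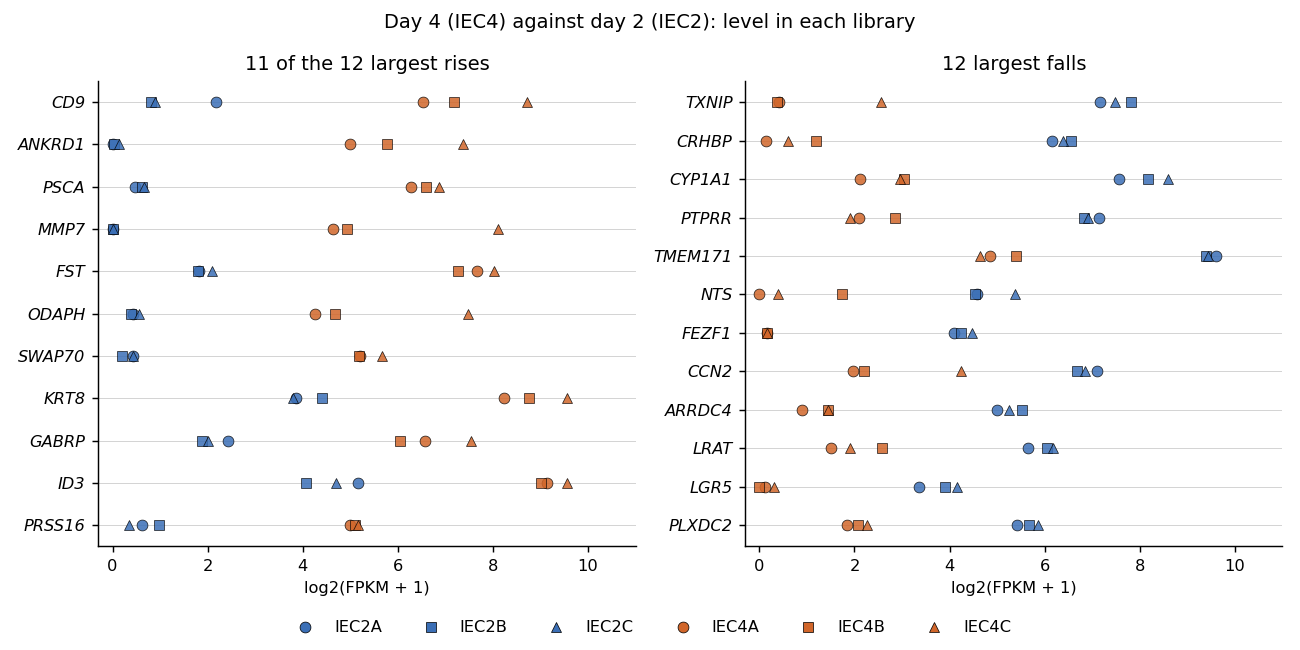
Level of 11 of the 12 largest rises (left) and of the 12 largest falls (right) in each library as log2(FPKM + 1), with IEC2 in blue, IEC4 in orange and the replicate letter as the symbol. In no gene do the stages overlap, and the IEC4C triangle lies well to the right of the other orange symbols for CD9, ANKRD1, MMP7, ODAPH, KRT8, GABRP, TXNIP and CCN2.

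Many genes of epithelial junctions rose. Of 28 tight junction genes found 20 were tested, of which 14 (70%) were called higher, beside 14.3% of all tested genes, and 1 (CLDN10) lower, with a median log2 fold change of 1.43 beside 0.20 over all genes. CLDN8 was listed at 0 in IEC2 and had 12.4, 16.2 and 25.2 FPKM in IEC4 (adjusted p = 2.45e-05), and CLDN4 (chr3:11039711-11053930) had 0.02197, 0 and 0 FPKM and 7.55, 7.34 and 61.1 FPKM (log2 fold change 4.03 ± 0.68 (SE), adjusted p = 0.00224). These claudins form the paracellular seal. A gene that is high only on day 4 passes the filter through those libraries, so that the shares and medians of this and the other lists are not those of all members. F11R, the junctional adhesion molecule A, had 1.96, 5.93 and 3.91 FPKM and 64.2, 41.9 and 96.3 FPKM (log2 fold change 3.799 ± 0.36 (SE), adjusted p = 1.44e-04), and CLDN1 had 0.259, 0.414 and 0.304 FPKM and 8.05, 10.2 and 41.9 FPKM (log2 fold change 3.62 ± 0.51 (SE), adjusted p = 9.59e-04). No call of this list was lost without IEC4C. Of the called-higher members, however, 11 of 14 had their highest level in IEC4C, and for 4 the log2 fold change was smaller by more than 0.5 without it, as for CLDN4 (3.07) and CLDN1 (2.93). In these bulk libraries a change in the number of cells of a type and a change in RNA per cell cannot be told apart.

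Keratins and desmosome genes were higher in 8 of 12 tested members (66.7%, beside 14.3% of all tested genes, median 1.31). By limma 0 were lower, also at an unadjusted p under 0.05. KRT7 had 0.197, 0.526 and 0.377 FPKM and 17.1, 18.2 and 62.5 FPKM (log2 fold change 4.37 ± 0.44 (SE), adjusted p = 1.94e-04), and KRT18, the filament partner of KRT8 (chr5:18217686-18221432), had 0.169, 0.723 and 0.337 FPKM and 8.42, 20.5 and 28.9 FPKM (log2 fold change 3.71 ± 0.40 (SE), adjusted p = 2.46e-04). PKP2, a plakophilin of the desmosome, had 3.04, 3.44 and 3.296 FPKM and 16.5, 15.7 and 32.3 FPKM (log2 fold change 2.33 ± 0.27 (SE), adjusted p = 3.51e-04). Among these, KRT80 alone lost its call without IEC4C (log2 fold change 1.09 with it and 0.86 without it). In each of the 8 called genes IEC4C was the highest library.

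Of 28 epithelial regulators and adhesion genes found, 15 were tested. Of these, 12 were higher (80%, beside 14.3% of all tested genes, median 1.47) and 1 was lower (6.67%, beside 4.98%). SPINT2, an inhibitor of serine proteases on the cell surface, was listed at 0 in IEC2 and had 8.803, 7.41 and 39.8 FPKM in IEC4 (adjusted p = 7.66e-04). Its relative SPINT1 had 0.277, 0.132 and 0.415 FPKM and 9.199, 6.64 and 54.5 FPKM (log2 fold change 3.68 ± 0.64 (SE), adjusted p = 0.00254). CDH1, the cadherin of epithelial junctions, which was named with its values known, had 0.0613, 0.229 and 0.0754 FPKM and 7.51, 6.54 and 42.8 FPKM (log2 fold change 3.66 ± 0.59 (SE), adjusted p = 0.00179), and without IEC4C its change was 2.84 (adjusted p = 1.59e-04). All 3 were several times higher in IEC4C than in the other IEC4 libraries. EHF, an ETS factor of epithelia and also named after its values were seen, went the other way, from 9.41, 8.43 and 6.99 FPKM to 1.57, 0.182 and 1.43 FPKM (log2 fold change -2.24 ± 0.31 (SE), adjusted p = 8.79e-04). Without IEC4C 9 of the 12 rises were called, and ITGA6 (0.79), KLF5 (0.94) and RAB25 (0.902) fell under the 2-fold limit. ITGA6 also lost its call without IEC2A, IEC2B, IEC2C or IEC4B (1.14 to 1.56). For 6 of the 12 the log2 fold change was smaller by more than 0.5 without IEC4C. EPCAM, GRHL2 and OVOL2, epithelial genes named after their values were seen, did not pass the filter. EPCAM was listed at 0 in IEC2 and had 0.166, 0.208 and 2.21 FPKM in IEC4. GRHL2 was also listed at 0 in IEC2 and had 0.204, 0.836 and 1.95 FPKM in IEC4. OVOL2 was listed at 0 at both stages. Genes of mesenchymal transition were called higher in 4 of 13 tested members (30.8%) and lower in 1 (7.69%), beside 14.3% and 4.98% of all tested genes. Without overlap, 6 of the 13 lay lower in IEC4 and 5 higher, against 18.3% and 36.1% of all tested genes. Their median was 0.07, and without IEC4C 2 were higher. With median-of-ratios scaling 2 were also higher, with a median of -0.14. SNAI1, a repressor of CDH1, had 0.605, 1.28 and 1.03 FPKM and 4.82, 4.93 and 8.55 FPKM (log2 fold change 1.82, adjusted p = 9.66e-04), while its relative SNAI2 had 4.47, 3.63 and 4.67 FPKM and 0.584, 1.22 and 1.21 FPKM (log2 fold change -1.403, adjusted p = 0.00142). LOXL2, a lysyl oxidase, was higher (log2 fold change 1.39, adjusted p = 0.0216) and lost its call without IEC4C (1.04), IEC2A (1.19) or IEC2B (1.19).

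Genes of amnion and trophoblast, the extraembryonic epithelia, were higher in 10 of 18 tested members (55.6%, median 1.17) and lower in 1, ISL1 (5.56%). Of all tested genes 14.3% were called higher and 4.98% lower. The counts of this list were the same without IEC4C. Besides GABRP and KRT7, ENPEP, a surface aminopeptidase, had 0.0103, 0.112 and 0.228 FPKM and 24.2, 5.398 and 19.6 FPKM (log2 fold change 3.74 ± 0.46 (SE), adjusted p = 4.86e-04), where IEC4B was the lowest day 4 library. HAND1, a factor of lateral and extraembryonic mesoderm and of trophoblast, was listed at 0 in IEC2 and had 6.59, 6.38 and 9.98 FPKM in IEC4 (adjusted p = 3.73e-05). The summed level of this list was 41.4 to 47.9 FPKM in IEC2 and 217, 156 and 377 FPKM in IEC4A, IEC4B and IEC4C, so that it was highest in the library in which the epithelial genes were highest. GABRP, given above with the epithelial genes, and KRT7 are part of this sum, and both were highest in IEC4C. The part of this list in the epithelial rise was not tested, and the keratin list shares KRT7 with it. Of the factors of this group, GATA2 had 0, 0 and 0.0176 FPKM and 1.42, 2.08 and 2.74 FPKM (log2 fold change 1.59, adjusted p = 6.90e-04), and GATA3 had 0.0283, 0.0258 and 0.0349 FPKM and 1.61, 1.16 and 2.92 FPKM (log2 fold change 1.45, adjusted p = 0.00219). Both were close to 0 on day 2 and above 1 FPKM in each day 4 library. Of the 30 members found 12 were not tested, among them further factors of trophoblast and amnion. CDX2 was listed at 0 in the 6 libraries, and TFAP2C (at most 0.0849 FPKM), TFAP2B (0.155 FPKM), GCM1 (0.244 FPKM) and ELF5 (0.312 FPKM) stayed low.

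**Figure D3:**
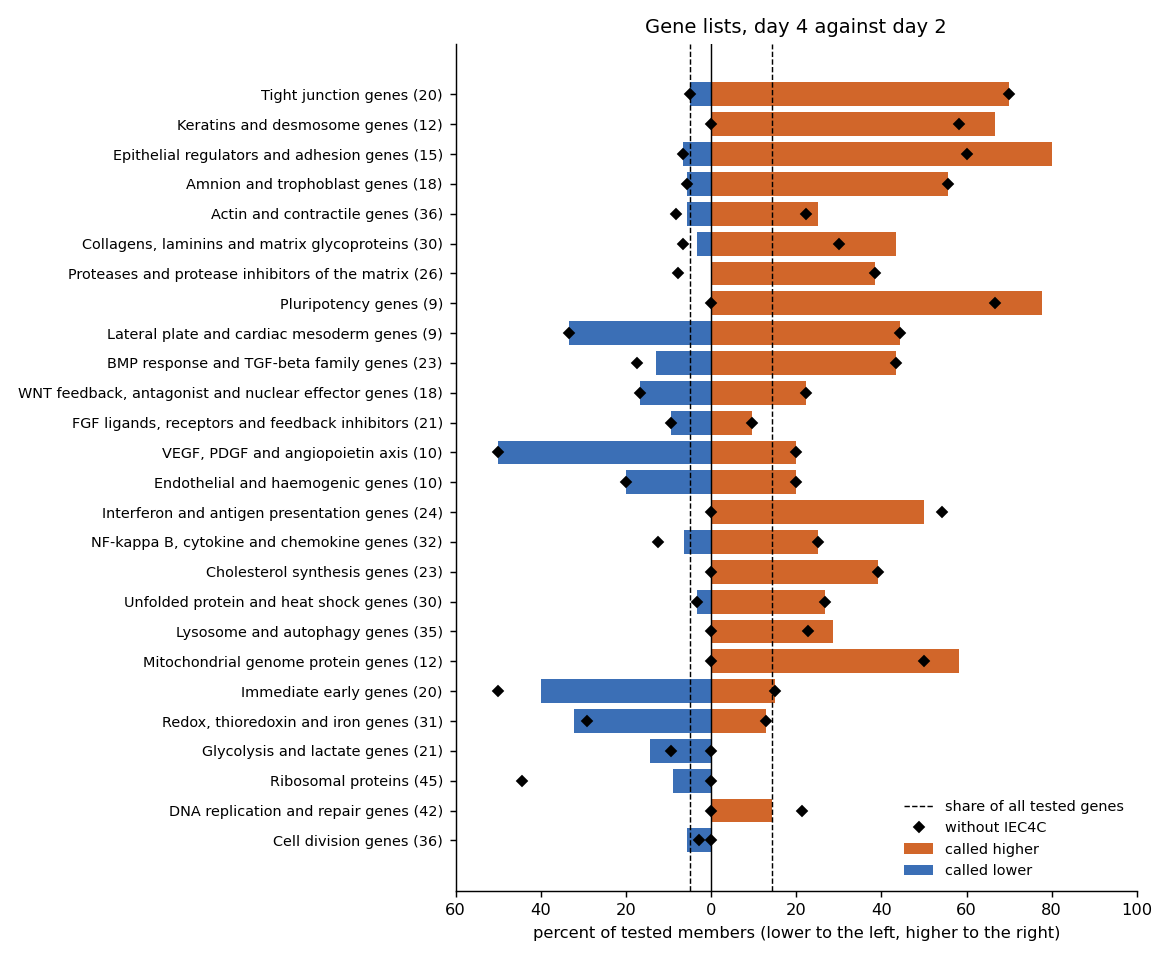
Percent of the tested members of 26 gene lists (number tested in brackets) that were called higher (orange, to the right) or lower (blue, to the left) on day 4, with the shares of all tested genes (14.3% and 4.98%) as dashed lines. Black diamonds give the shares without IEC4C, which lie near the bar ends for most lists and far from them for the ribosomal proteins.

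Matrix genes and the enzymes that act on matrix rose in part. Among 30 tested collagens, laminins and matrix glycoproteins, 13 were higher (43.3%, median 0.97) and 1 lower (3.33%), beside 14.3% and 4.98% of all tested genes. LAMB1, a laminin chain of basement membranes, had 1.41, 1.69 and 2.13 FPKM and 17.6, 22.1 and 71.02 FPKM (log2 fold change 3.52 ± 0.45 (SE), adjusted p = 5.77e-04). COL17A1, the collagen of hemidesmosomes, had 0.0517, 0.0214 and 0.03904 FPKM and 6.28, 11.4 and 17.4 FPKM (log2 fold change 3.51 ± 0.32 (SE), adjusted p = 1.12e-04). Each was highest in IEC4C, as were 12 of the 13. Without that library 9 rises were left and 2 falls, and SPARC (1.16 with it and 0.88 without it), LAMC1 (0.86 without it), EFEMP1 (0.99) and COL8A1 (0.896) lost their calls. EFEMP1 also lost it without IEC2A (1.14) or IEC4B (1.38), and COL8A1 without IEC2B (0.75). FN1, fibronectin, named after its values were seen, had 6.73, 6.64 and 7.24 FPKM in IEC2 and 13.1, 10.4 and 116 FPKM in IEC4 and was not called (log2 fold change 1.76, adjusted p = 0.0909). LAMA3, another laminin chain named in the same way, had 0.272, 0.223 and 0.4702 FPKM and 1.14, 1.29 and 17.6 FPKM (log2 fold change 1.77, adjusted p = 0.082). In both the high day 4 value stood in IEC4C alone, and FN1 was called without IEC4B (2.37) and LAMA3 without IEC4A (2.31) or with a pseudocount of 0.1 (2.93).

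Of 26 tested proteases and protease inhibitors, 10 were higher (38.5%, median 0.87). By limma 0 were lower, with 2 lower at an unadjusted p under 0.05 and 2 called lower without IEC4C. PLAU, the urokinase that activates plasminogen, had 3.73, 3.402 and 4.01 FPKM and 40.6, 33.3 and 621 FPKM (log2 fold change 4.35 ± 0.93 (SE), adjusted p = 0.00671), and 3.003 was its log2 fold change without IEC4C. IEC4C held most of this rise, though IEC4A and IEC4B also lay above all IEC2 libraries. SERPINF1, an anti-angiogenic serpin, had 0.715, 0.197 and 0.654 FPKM and 23.5, 22.6 and 16.8 FPKM (log2 fold change 3.86 ± 0.22 (SE), adjusted p = 1.99e-05) and was lowest in IEC4C. Among 36 tested actin and contractile genes, 9 were higher (25%) and 2 lower (5.56%), beside 14.3% and 4.98% of all tested genes. MYL9, a myosin light chain, had 1.83, 1.86 and 1.44 FPKM and 25.9, 19.003 and 41.3 FPKM (log2 fold change 3.39, adjusted p = 6.39e-05), CALD1, caldesmon, had 1.92, 2.55 and 2.67 FPKM and 14.6, 16.96 and 37.9 FPKM (log2 fold change 2.72, adjusted p = 4.36e-04), and TPM1, tropomyosin, had 24.1, 24.1 and 23.6 FPKM and 78.6, 91.04 and 180.4 FPKM (log2 fold change 2.14, adjusted p = 5.77e-04). None of the 9 was smaller by more than 0.5 without IEC4C, which was the highest day 4 library in 8 of them. ACTN1, an actinin (log2 fold change 1.21, adjusted p = 0.0203), lost its call without IEC4C (0.96) or IEC2A (0.84). Targets of YAP and TEAD did not move as one: 5 of 20 tested members were higher (25%) and 2 lower (10%). ANKRD1 rose while CCN2 and CCN1 (39.97, 26.3 and 34.1 FPKM, then 2.304, 5.096 and 17.6 FPKM, log2 fold change -2.24, adjusted p = 0.0104) fell.

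Genes of pluripotent and early embryonic cells were found among the rises. Of 33 listed pluripotency genes 22 were found and 9 passed the filter. Of these, 7 were higher (77.8%, beside 14.3% of all tested genes) and 0 lower by limma, also at an unadjusted p under 0.05. This share too is not that of all members. The largest rise of the list was CD9, which is described above among the surface genes, and 6 members were called higher without IEC4C. LIN28A, an RNA-binding protein of pluripotent and early progenitor cells, was listed at 0 in IEC2 and had 3.94, 3.01 and 5.86 FPKM in IEC4 (adjusted p = 1.68e-04). OTX2, a homeobox factor of epiblast and forebrain, had 13.7, 14.4 and 11.3 FPKM and 53.1, 54.6 and 37.5 FPKM (log2 fold change 1.79 ± 0.18 (SE), adjusted p = 1.81e-04). LEFTY2, an inhibitor of NODAL, had 0.105, 0 and 0 FPKM and 8.08, 3.83 and 1.12 FPKM (log2 fold change 2.13 ± 0.45 (SE), adjusted p = 0.00635), and unlike most epithelial genes it was lowest in IEC4C. NANOG, a core pluripotency factor, did not exceed 0.530 FPKM in any of the 6 libraries and was not tested.

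Mesoderm genes moved in both directions. Of 22 primitive streak and paraxial mesoderm genes found, 6 were tested. Of these, 5 were higher (83.3%) and 1 lower (16.7%), beside 14.3% and 4.98% of all tested genes. CDX4, a homeobox factor of the posterior streak, had 0, 0.491 and 0.913 FPKM and 24.1, 20.8 and 6.94 FPKM (log2 fold change 3.53 ± 0.44 (SE), adjusted p = 5.20e-04), with IEC4C the lowest. CYP26A1, which degrades retinoic acid, was listed at 0 in IEC2 and had 2.19, 3.45 and 7.72 FPKM in IEC4 (adjusted p = 0.00115). WNT3, a ligand needed for the streak, had 0.518, 0.236 and 0.0861 FPKM and 3.81, 2.596 and 6.18 FPKM (log2 fold change 1.98 ± 0.28 (SE), adjusted p = 9.83e-04). PDGFRA, a receptor of mesenchymal and paraxial mesoderm, fell from 5.13, 3.62 and 3.98 FPKM to 0.801, 0.7398 and 0.217 FPKM (log2 fold change -1.74 ± 0.23 (SE), adjusted p = 7.03e-04). MIXL1 was listed at 0 in all 12 libraries of the series, so that its 0 is not particular to these stages. MESP1 did not exceed 0.376 FPKM in the 6 libraries, and neither of these defining streak genes was tested. MESP2 was named after its values were seen. It had 0.087, 0.099 and 0.281 FPKM in IEC2 and 1.41, 1.39 and 1.35 FPKM in IEC4, without overlap. The paper measured it by RT-qPCR as a late mesoderm marker, together with PDGFR2, MIXL1 and MESP1. It reported low mesoderm markers on day 2. On day 4 these were higher in its control than with a TGF-β receptor inhibitor given up to day 4. By RNA sequencing here, MIXL1 and MESP1 stayed at or near 0 at both stages. PDGFRA fell, though the paper does not say whether its PDGFR2 is this gene. In the lateral plate and cardiac list 4 of 9 tested genes were higher (44.4%) and 3 lower (33.3%). TNNC1, troponin C of slow and heart muscle, had 0, 0.0368 and 0 FPKM and 7.46, 12.2 and 13.5 FPKM (log2 fold change 3.53 ± 0.24 (SE), adjusted p = 3.42e-05), and WT1, ISL1 and PDGFRA were the falls.

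Endothelial genes shared no direction. KDR (VEGF receptor, chr8:41809116-41856379) had 2.45, 3.99 and 2.42 FPKM in IEC2 and 0, 0.302 and 0.154 FPKM in IEC4 (log2 fold change -1.76 ± 0.22 (SE), adjusted p = 5.82e-04). CALCRL, the receptor of adrenomedullin, had 15.1, 12.99 and 14.5 FPKM and 3.94, 3.64 and 2.38 FPKM (log2 fold change -1.83 ± 0.20 (SE), adjusted p = 2.59e-04). Both receptors were lower in each IEC4 library than in each IEC2 library. In the wider VEGF, PDGF and angiopoietin list 5 of 10 tested genes were lower (50%) and 2 higher (20%), with the same counts without IEC4C. Of all tested genes 4.98% were called lower and 14.3% higher. ANGPTL4, a secreted inhibitor of lipoprotein lipase, had 59.8, 94.9 and 166 FPKM and 22.98, 31.8 and 32.2 FPKM (log2 fold change -1.74 ± 0.33 (SE), adjusted p = 0.00355), and PDGFD, a PDGF ligand, had 0.0541, 0.0164 and 0.0666 FPKM and 4.94, 5.82 and 9.45 FPKM (log2 fold change 2.84 ± 0.24 (SE), adjusted p = 9.31e-05). HEY2, a NOTCH target of arteries and heart, had 0.136, 0.1899 and 0.208 FPKM and 4.14, 1.26 and 1.64 FPKM (log2 fold change 1.41, adjusted p = 0.00666).

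Lists of further cell types that the cultures could hold gave small numbers. Of all tested genes 14.3% were called higher and 4.98% lower. In the fibroblast list these shares were 11.1% and 22.2%, and in the neural list 22.2% and 11.1%. They were 40% and 20% in the endoderm list and 33.3% each in the blood list. The fibroblast and mesenchymal list had 1 of 9 tested genes higher (COL1A1, 0.273, 0.369998 and 0.381 FPKM and 4.73, 2.18 and 9.86 FPKM, log2 fold change 2.12, adjusted p = 0.00342) and 2 lower, and its summed level was 179 to 263 FPKM in IEC2 and 102 to 142 FPKM in IEC4. SFRP2, a secreted WNT modulator of that list, had 41.7, 81.998 and 77.3 FPKM and 11.7, 17.1 and 14.1 FPKM (log2 fold change -2.11, adjusted p = 4.83e-04). The neural list had 2 of 9 higher and 1 lower, with sums of 63.9 to 68.8 FPKM and 85.1 to 106 FPKM. The endoderm list had 2 of 5 higher and 1 lower, and its sum was 110 to 145 FPKM in IEC2 and 212, 227 and 627 FPKM in IEC4, mostly from CLDN6 (129.8, 86.9 and 97.1 FPKM and 202, 216 and 612 FPKM), which is also a tight junction gene and lost its call without IEC2B (1.40). The blood list had 3 of 20 found members tested, and PTPRC, the leukocyte phosphatase CD45, had 0.0258, 0.00336 and 0.0204 FPKM and 3.49, 2.71 and 2.14 FPKM (log2 fold change 1.88, adjusted p = 2.44e-04) while SPI1, a myeloid factor, had 9.16, 5.35 and 6.12 FPKM and 1.22, 1.79 and 1.69 FPKM (log2 fold change -1.59, adjusted p = 0.00111). The parts of such cells in the other results were not tested.

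Targets of the factors in the media were read next. In the BMP response and TGF-β family list 10 of 23 tested genes were higher and 3 lower. ID2, a relative of ID3, had 0.657, 0.976 and 0.728 FPKM and 18.8, 19.2 and 39.5 FPKM (log2 fold change 3.83 ± 0.29 (SE), adjusted p = 5.18e-05), and SMAD9, a transducer of BMP signals, had 0.295, 0.11003 and 0.412 FPKM and 7.24, 8.85 and 8.74 FPKM (log2 fold change 2.87 ± 0.20 (SE), adjusted p = 3.47e-05). ID1 did not exceed 0.0142 FPKM in any of the 12 libraries of the series, also in AOC, where ID3 had 613 to 758 FPKM. Whether ID1 was captured by the quantification is unknown, so that its values do not tell whether it responded. BMP4 itself had 7.41, 8.53 and 6.895 FPKM and 16.7, 23.8 and 48.3 FPKM (log2 fold change 1.700, adjusted p = 0.00418).

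Genes of the WNT pathway split. Of 16 tested ligands, receptors and co-receptors 3 were higher (18.8%) and 2 lower (12.5%), beside 14.3% and 4.98% of all genes, and FZD7, a receptor (log2 fold change 1.02), lost its call without IEC4C (0.87) or IEC2A (0.90). LGR4, a relative of LGR5, had 2.43, 2.37 and 1.53 FPKM and 5.86, 8.67 and 8.42 FPKM (log2 fold change 1.47, adjusted p = 0.00133) and so moved opposite to it, and WNT11, a non-canonical ligand, had 3.56, 4.74 and 3.62 FPKM and 0.174, 0.2397 and 1.26 FPKM (log2 fold change -1.73, adjusted p = 0.00184). Of 18 feedback, antagonist and effector genes 4 were higher (22.2%) and 3 lower (16.7%). SFRP1, a secreted antagonist, had 0.599, 0.0165 and 0.494 FPKM and 17.9, 16.2 and 44.1 FPKM (log2 fold change 4.19 ± 0.37 (SE), adjusted p = 1.06e-04), whereas DKK2, another antagonist, had 13.8, 10.2 and 12.6 FPKM and 1.296, 0.935 and 0.0513 FPKM (log2 fold change -2.97 ± 0.30 (SE), adjusted p = 1.95e-04). MYC had 0, 0 and 0.131 FPKM and 2.402, 9.64 and 17.5 FPKM (log2 fold change 3.07, adjusted p = 0.00237), and CCND1, cyclin D1, had 0.246, 0.183 and 0.765 FPKM and 5.95, 7.33 and 10.3 FPKM (log2 fold change 2.66, adjusted p = 1.54e-04). All 4 kept their calls without IEC4C. LEF1, a nuclear effector, overlapped between stages at 6.597, 11.8 and 10.9 FPKM and 11.1, 11.4 and 10.1 FPKM (log2 fold change 0.17, adjusted p = 0.548), and its sign turned with median-of-ratios scaling and without IEC2A. AXIN2, the usual readout of WNT signals, had 0.0618, 0.635 and 0.506 FPKM and 0.311, 0.278 and 1.01 FPKM and was not tested.

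Of 21 tested FGF ligands, receptors and feedback inhibitors, 2 were higher and 2 lower (9.52% each), beside 14.3% and 4.98% of all genes. The rises were IL17RD, an inhibitor of FGF signals, with 2.8005, 3.41 and 7.68 FPKM and 10.3, 13.6 and 15.3 FPKM (log2 fold change 1.402, adjusted p = 0.0079), and FGFR3, a receptor, with 0.0567, 0.166 and 0.169 FPKM and 1.52, 1.67 and 1.73 FPKM (log2 fold change 1.23, adjusted p = 9.89e-04). SPRY2, a feedback inhibitor of receptor kinases, had 19.2, 16.2 and 16.4 FPKM and 4.61, 3.93 and 3.699 FPKM (log2 fold change -1.84 ± 0.16 (SE), adjusted p = 1.06e-04), and EGR1, an early target, had 16.8, 16.9 and 21.5 FPKM and 4.82, 4.65 and 2.83 FPKM (log2 fold change -1.94 ± 0.21 (SE), adjusted p = 2.74e-04). DUSP6, the ERK phosphatase, had 51.1, 51.8 and 63.7 FPKM and 44.6, 41.6 and 42.7 FPKM and was not called (log2 fold change -0.36, adjusted p = 0.0524). These last 3 genes were lower in each IEC4 library than in each IEC2 library, with DUSP6 lower by a small amount. The early response genes as a list had 8 of 20 tested members lower (40%, median -0.85) and 3 higher. JUN had 19.8, 24.2 and 27.96 FPKM and 3.27, 5.22 and 4.74 FPKM (log2 fold change -2.21, adjusted p = 1.20e-04), and FOS, named after its values were seen, had 97.1, 60.9 and 69.2 FPKM and 24.1, 17.9 and 20.2 FPKM (log2 fold change -1.804, adjusted p = 2.46e-04). EGR2, a relative of EGR1, moved opposite to it, with 5.27, 5.21 and 9.63 FPKM and 41.8, 33.4 and 29.8 FPKM (log2 fold change 2.26, adjusted p = 2.31e-04). Without IEC4C 10 members were lower and 3 higher.

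Genes of interferon response and antigen presentation were higher in 12 of 24 tested members (50%, median 1.05). By limma 0 were lower, with 1 lower at an unadjusted p under 0.05. BST2, tetherin, had 0.8001, 0.849 and 0.387 FPKM and 8.55, 11.9 and 76.9 FPKM (log2 fold change 3.67 ± 0.68 (SE), adjusted p = 0.00329) and was highest in IEC4C. IFI35 had 1.93, 3.54 and 2.03 FPKM and 28.03, 27.3 and 27.9 FPKM (log2 fold change 3.07 ± 0.20 (SE), adjusted p = 3.06e-05), and IRF1, a factor that induces such genes, had 0.551, 1.85 and 2.53 FPKM and 18.5, 14.6 and 17.3 FPKM (log2 fold change 2.83 ± 0.30 (SE), adjusted p = 2.41e-04), each with close IEC4 libraries. IFI6 had 0.788, 1.06 and 1.105 FPKM and 9.33, 11.2 and 17.7 FPKM (log2 fold change 2.75, adjusted p = 1.12e-04). Without IEC4C 13 members were called. The immunoproteasome subunits PSMB10 (1.54, 1.19 and 1.37 FPKM, then 5.69, 6.37 and 10.9 FPKM, log2 fold change 1.82, adjusted p = 8.19e-04) and PSMB9 (4.68, 4.18 and 4.72 FPKM, then 9.14, 14.5 and 23.7 FPKM, log2 fold change 1.51, adjusted p = 0.00447) were the 2 of 36 proteasome genes called, both higher. Those 2 were 5.56% of the tested proteasome genes, beside 14.3% of all tested genes. In the NF-κB, cytokine and chemokine list 8 of 32 genes were higher (25%) and 2 lower (6.25%), beside 14.3% and 4.98% of all tested genes. CXCL14, a chemokine of epithelia, was listed at 0 in IEC2 and had 5.76, 6.71 and 15.8 FPKM in IEC4 (adjusted p = 1.96e-04), NFKBIA, the inhibitor of NF-κB, had 6.28, 4.93 and 4.63 FPKM and 25.4, 28.3 and 48.1 FPKM (log2 fold change 2.43, adjusted p = 1.88e-04), and ICAM1, an adhesion molecule, had 4.64, 5.34 and 7.81 FPKM and 14.5, 15.1 and 71.5 FPKM (log2 fold change 1.95, adjusted p = 0.0194). ICAM1 lost its call without IEC2A (1.81) or IEC2B (1.90).

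Cholesterol synthesis genes were higher in 9 of 23 tested members (39.1%, beside 14.3% of all tested genes, median 0.69). By limma 0 were lower, also at an unadjusted p under 0.05. MVD, of the mevalonate pathway, had 15.7, 25.1 and 29.8 FPKM and 91.7, 126 and 76.5 FPKM (log2 fold change 2.03 ± 0.25 (SE), adjusted p = 5.29e-04). FDFT1, squalene synthase, had 8.07, 6.37 and 7.1996 FPKM and 26.1, 31.5 and 24.3 FPKM (log2 fold change 1.78 ± 0.16 (SE), adjusted p = 1.12e-04), and DHCR7, which makes cholesterol from its last precursor, had 0.956, 1.75 and 1.696 FPKM and 5.42, 6.58 and 7.78 FPKM (log2 fold change 1.63 ± 0.22 (SE), adjusted p = 8.29e-04). The libraries of the stages did not overlap in any of the 3, and MVD lost its call in the fit of 9 libraries. All 9 calls remained without IEC4C, and IEC4C was the highest day 4 library in 1 of them.

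In the unfolded protein and heat shock list 8 of 30 tested genes were higher (26.7%, beside 14.3% of all genes, median 0.55) and 1 was lower. CRELD2 had 6.15, 5.98 and 6.93 FPKM and 48.5, 74.4 and 66.2 FPKM (log2 fold change 3.102 ± 0.18 (SE), adjusted p = 1.87e-05), PDIA4, a disulphide isomerase, had 28.1, 46.3 and 61.5 FPKM and 186, 236 and 196 FPKM (log2 fold change 2.22 ± 0.25 (SE), adjusted p = 3.41e-04), and DNAJB9, a co-chaperone of the reticulum, had 34.9, 47.3 and 34.6 FPKM and 153, 185 and 136 FPKM (log2 fold change 1.99 ± 0.17 (SE), adjusted p = 8.62e-05). HERPUD1, which acts in the disposal of misfolded proteins and was named after its values were seen, was the fall (66.6, 66.6 and 80.1 FPKM and 26.7, 34.2 and 32.2 FPKM, log2 fold change -1.17, adjusted p = 4.46e-04). The 8 rises were also called without IEC4C. In the list of amino acid synthesis and ATF4 targets 2 of 33 were higher (6.06%) and 3 lower (9.09%), beside 14.3% and 4.98% of all genes. Those higher were TRIB3 (log2 fold change 1.16, adjusted p = 0.0167), which lost its call without IEC2A (0.78) or IEC4B (1.04), and ALDH18A1 (log2 fold change 1.16, adjusted p = 0.00366), which lost it without IEC2A (0.96). Those lower were ATF3 (141, 179 and 154 FPKM, then 32.1, 33.4 and 36.2 FPKM, log2 fold change -2.18, adjusted p = 1.99e-05), CHAC1 (195, 282 and 268 FPKM, then 80.1, 84.4 and 57.3 FPKM, log2 fold change -1.74, adjusted p = 2.92e-04) and ASNS, asparagine synthetase (1812, 1768 and 1636 FPKM, then 809, 816 and 704 FPKM, log2 fold change -1.16, adjusted p = 2.89e-04). Lysosome and autophagy genes were higher in 10 of 35 (28.6%, median 0.58). SQSTM1, the autophagy receptor p62, had 103, 202 and 195 FPKM and 946, 945 and 791 FPKM (log2 fold change 2.48 ± 0.25 (SE), adjusted p = 1.81e-04), and GLB1, lysosomal galactosidase, had 17.8, 16.99 and 21.9 FPKM and 68.1, 67.1 and 279.8 FPKM (log2 fold change 2.47 ± 0.48 (SE), adjusted p = 0.00438), the latter highest in IEC4C. MAN2B1 lost its call without IEC4C (0.73) and also without IEC2A (0.99) or IEC2B (1.12).

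The redox, thioredoxin and iron list also holds the genes of the aryl hydrocarbon receptor. It had 10 of 31 tested members lower (32.3%) and 4 higher (12.9%), with a median of 0.01. Of all tested genes 4.98% were called lower and 14.3% higher. CYP1B1, a relative of CYP1A1, had 73.5, 62.5 and 99.98 FPKM and 8.92, 13.1 and 12.6 FPKM (log2 fold change -2.66 ± 0.21 (SE), adjusted p = 6.03e-05). Its members AHR, AHRR and TIPARP were named after their values were seen. AHR, the receptor, had 14.9, 19.4 and 13.1 FPKM and 2.03, 1.305 and 1.72 FPKM (log2 fold change -2.63 ± 0.21 (SE), adjusted p = 6.61e-05), its repressor AHRR had 4.94, 6.01 and 6.19 FPKM and 0.997, 1.79 and 1.65 FPKM (log2 fold change -1.45 ± 0.21 (SE), adjusted p = 0.00108), and TIPARP, a target that limits the receptor, had 42.9, 45.1 and 43.8 FPKM and 14.9, 15.4 and 12.3 FPKM (log2 fold change -1.57 ± 0.13 (SE), adjusted p = 9.23e-05). The receptor and these targets were lower in every IEC4 library than in any IEC2 library, and each call remained without IEC4C.

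Ribosomal protein and glycolysis genes leaned lower on day 4, while few genes of ribosome biogenesis were called. Of 36 MYC family and ribosome biogenesis genes 2 were higher (5.56%, beside 14.3% of all genes) and 0 lower by limma. Their median was -0.03, with 8 higher and 8 lower at an unadjusted p under 0.05. Ribosomal proteins had 4 of 45 tested members called lower (8.89%) and 0 higher by limma (2 higher at an unadjusted p under 0.05), but their median log2 fold change was -0.78 and 39 of the 45 lay lower in IEC4 without overlap, against 18.3% of all tested genes. RPS28 had 107, 102 and 81.6 FPKM and 26.9, 38.4 and 68.8 FPKM (log2 fold change -1.196 ± 0.30 (SE), adjusted p = 0.0124), and RPS20 had 482, 376 and 349 FPKM and 156, 184 and 267 FPKM (log2 fold change -1.01 ± 0.21 (SE), adjusted p = 0.00569). RPS20 lost its call without IEC2A (-0.87), IEC4A (-0.84) or IEC4B (-0.96), and RPS28 without IEC4A (-0.89). The median of the list, relative to its IEC2 mean, was -1.05 in IEC4A, -0.83 in IEC4B and -0.42 in IEC4C. Without IEC4C 20 members were called lower, and with median-of-ratios scaling 21. Ribosomal protein genes have many near-identical copies in the genome, between which the counting could have split reads, and their values are uncertain in that respect. Of 21 glycolysis and lactate genes 3 were lower (14.3%, beside 4.98% of all genes, median -0.32), or 2 without IEC4C, and 0 higher by limma, with 3 higher at an unadjusted p under 0.05. Without overlap, 10 of the 21 lay lower in IEC4 and 3 higher, against 18.3% and 36.1% of all tested genes. GAPDH had 5246, 4935 and 4334 FPKM and 2022, 1877 and 1562 FPKM (log2 fold change -1.41 ± 0.16 (SE), adjusted p = 3.51e-04), and ALDOA, aldolase, had 1519, 1418 and 1271 FPKM and 740.2, 577 and 643 FPKM (log2 fold change -1.105 ± 0.14 (SE), adjusted p = 6.19e-04). The other, ENO2 (log2 fold change -1.03), lost its call without IEC4C (-0.896) or IEC2C (-0.92) and, just short of the 2-fold limit, without IEC2B.

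Protein genes of the mitochondrial genome went up in 7 of 12 tested members (58.3%, median 1.27), and 0 were lower by limma, also at an unadjusted p under 0.05. ATP6, a subunit of ATP synthase, had 1390.2, 1814 and 1563 FPKM and 6857, 7819.9 and 11155 FPKM (log2 fold change 2.41 ± 0.21 (SE), adjusted p = 1.02e-04), and CYTB, of respiratory complex III, had 390.04, 369 and 372 FPKM and 1337, 1753 and 2810.0 FPKM (log2 fold change 2.31 ± 0.24 (SE), adjusted p = 2.29e-04). IEC4C was the highest library for all 7 called genes, and ND4 lost its call without it (1.15 and 0.82). The nuclear genes of the respiratory chain did not move with them, as 1 of 56 was called higher (1.79%, beside 14.3% of all genes) and 0 lower by limma. Their median was -0.02, with 9 higher and 3 lower at an unadjusted p under 0.05. Cell division genes had 2 of 36 tested members lower (5.56%), near the 4.98% of all genes, and 0 higher by limma, with 13 lower and 3 higher at an unadjusted p under 0.05. Without overlap, 14 of the 36 lay lower in IEC4 and 3 higher, against 18.3% and 36.1% of all tested genes. CDK1 had 32.7, 21.7 and 25.4 FPKM and 10.5, 11.8 and 15.4 FPKM (log2 fold change -1.02, adjusted p = 0.0041), and AURKB had 179, 174 and 149 FPKM and 91.4, 76.997 and 64.2 FPKM (log2 fold change -1.11, adjusted p = 8.15e-04). AURKB lost its call without IEC4C (-0.99), and CDK1 without IEC2A (-0.87), IEC4A (-0.91) or IEC4B (-0.99). In DNA replication and repair 6 of 42 were higher, near the share of all genes, and without IEC4C 9 were. TYMS, thymidylate synthase, had 53.6, 47.5 and 43.3 FPKM and 143, 149 and 140.1 FPKM (log2 fold change 1.57, adjusted p = 5.35e-05), and MCM7, of the replicative helicase, had 9.64, 10.8 and 12.3 FPKM and 34.03, 37.4 and 30.1 FPKM (log2 fold change 1.55, adjusted p = 1.57e-04). Among inhibitors of the cell cycle and p53 targets 6 of 23 were higher (26.1%) and 2 lower (8.70%), beside 14.3% and 4.98% of all genes. GDF15, a stress cytokine, had 4.66, 6.08 and 5.71 FPKM and 103, 155 and 137 FPKM (log2 fold change 4.34 ± 0.18 (SE), adjusted p = 5.99e-06), and CDKN2B, an inhibitor of CDK4 and CDK6, had 0.256, 1.26 and 0.90004 FPKM and 6.28, 4.37 and 13.8 FPKM (log2 fold change 2.25, adjusted p = 0.00238).

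**Figure D4:**
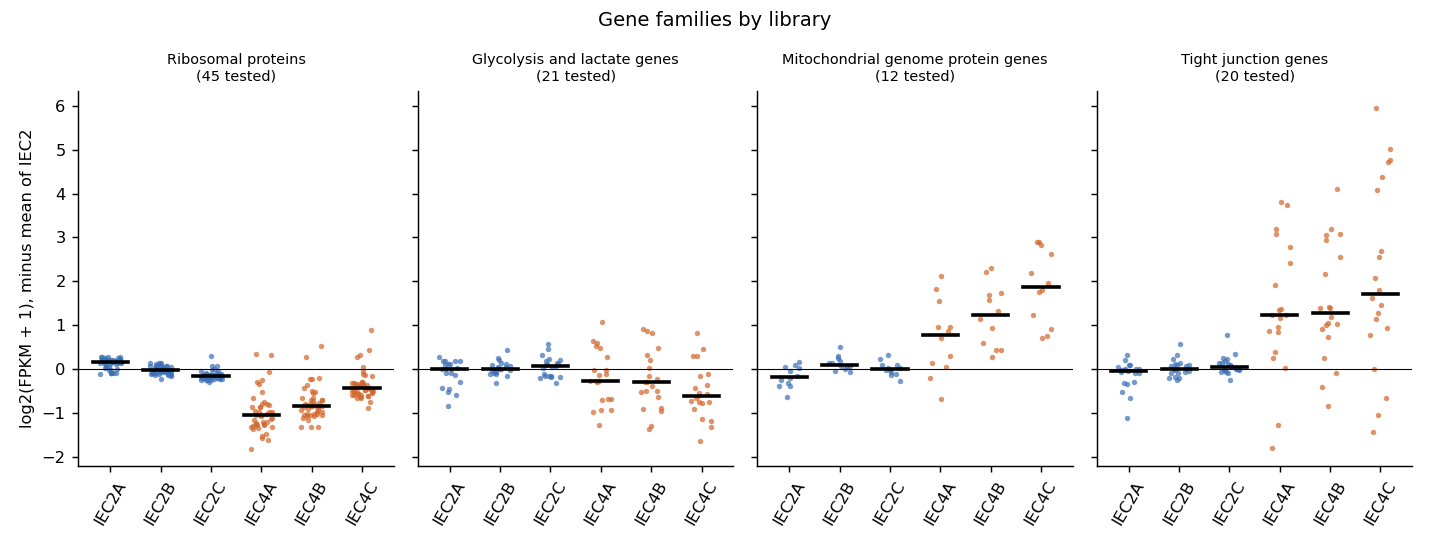
Log2(FPKM + 1) of each tested member of 4 gene families in each library, minus the gene's mean over the IEC2 libraries, with 1 point per gene and the median as a bar. The ribosomal proteins lie below 0 in the IEC4 libraries and least so in IEC4C (median -0.42), and the mitochondrial genes and tight junction genes lie above 0, with the highest medians in IEC4C (1.89 and 1.71).

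The dependence of the calls on IEC4C was then measured over all genes. Without IEC4C 1428 genes were called higher (14.1%) and 588 lower (5.82%). Of the 1952 calls 1767 were made in both fits, 185 were lost (141 higher and 44 lower), 249 were gained, and no called gene changed sign. Leaving out another library lost 142 to 262 calls, the most for IEC2A, so that the number of lost calls was not largest for IEC4C. All 94 rises and all 21 falls past the study's limits were also called without it on the 2-fold rule. The size of a small share of the rises depended on it. IEC4C was the highest of the IEC4 libraries in 615 of the 1448 rises (42.5%), against 458 for IEC4A and 375 for IEC4B, and the log2 fold change of 66 rises (4.56%) was smaller by more than 0.5 without IEC4C, while that of 5 was larger. Without IEC4A or IEC4B it was smaller by as much in 7 and 1 rises and larger in 13 and 12, and without an IEC2 library it was smaller in 0 to 13. Over all 1448 rises the median difference made by IEC4C was 0.015 log2 units.

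The called genes that stood highest in IEC4C over the other IEC4 libraries were PLAU, CCN3, MMP7, THBS1, ODAPH, CLDN4, ITGB6 and SLC19A3, most of which act at the cell surface or in the matrix. CCN3, a matricellular protein, had 0.0916, 0 and 0 FPKM in IEC2 and 1.96, 2.57 and 32.8 FPKM in IEC4 (log2 fold change 2.78 ± 0.79 (SE), adjusted p = 0.0223), and its log2 fold change without IEC4C was 1.66. THBS1, thrombospondin, had 1.31, 0.505 and 0.745 FPKM and 7.45, 6.67 and 70.1 FPKM (log2 fold change 3.19 ± 0.75 (SE), adjusted p = 0.00993), and 2.14 without IEC4C. ITGB6, an integrin chain of epithelia, and SLC19A3, a thiamine transporter, were listed at 0 in IEC2 and had 3.83, 2.17 and 27.1 FPKM and 1.92, 1.699 and 19.1 FPKM in IEC4 (adjusted p = 0.00992 and 0.0197). These genes were nevertheless higher in IEC4A and IEC4B than in any IEC2 library, and each was called without IEC4C. CCN3 and SLC19A3 lost their calls when IEC2A, IEC2B or IEC2C was left out, though the log2 fold change of CCN3 stayed at 2.76 to 2.83.

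The called genes that stood lowest in IEC4C were LEFTY2, RGS5, CDX4, AMCF-II, KCNS3, THEM5, SLC22A4 and FAM13C. RGS5, a regulator of G protein signals known from pericytes, was listed at 0 in IEC2 and had 24.6, 7.603 and 3.93 FPKM in IEC4 (adjusted p = 0.00133). KCNS3, a potassium channel subunit, had 1.98, 1.34 and 1.32 FPKM and 47.7, 39.8 and 16.4 FPKM (log2 fold change 3.69 ± 0.36 (SE), adjusted p = 1.58e-04). AMCF-II, a porcine chemokine, had 0, 0.451 and 0 FPKM and 6.52, 6.32 and 1.63 FPKM (log2 fold change 2.21 ± 0.40 (SE), adjusted p = 0.00314), and SLC22A4, a carnitine and cation transporter, had 0.958, 0.1798 and 0.183 FPKM and 11.5, 11.1 and 4.604 FPKM (log2 fold change 2.76 ± 0.35 (SE), adjusted p = 6.07e-04). THEM5, a thioesterase, had 0.568, 0 and 0 FPKM and 2.897, 4.48 and 1.003 FPKM (log2 fold change 1.59, adjusted p = 0.00958), and FAM13C had 1.0998, 1.35 and 0.4503 FPKM and 10.4, 5.51 and 3.01 FPKM (log2 fold change 1.79, adjusted p = 0.00602). For all 8 genes the log2 fold change was larger without IEC4C, up to 4.14 for KCNS3.

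Among the lists with 10 or more called rises, a size chosen after the values were seen, those with the highest shares smaller by more than 0.5 without IEC4C were the epithelial regulators (6 of 12), the proteases (4 of 10) and the tight junctions (4 of 14). Of shorter lists, integrins had 2 of 3 such rises. The annexin and S100 list went from 3 called rises to 1 without IEC4C, and the mesenchymal transition list from 4 to 2. No rise among the cholesterol genes, the unfolded protein and heat shock genes, the BMP and TGF-β family genes or the actin genes was smaller by as much, though ACTN1 of the actin genes lost its call. Mitochondrial transcripts were also highest in IEC4C, and their part in these differences was not tested.

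**Figure D5:**
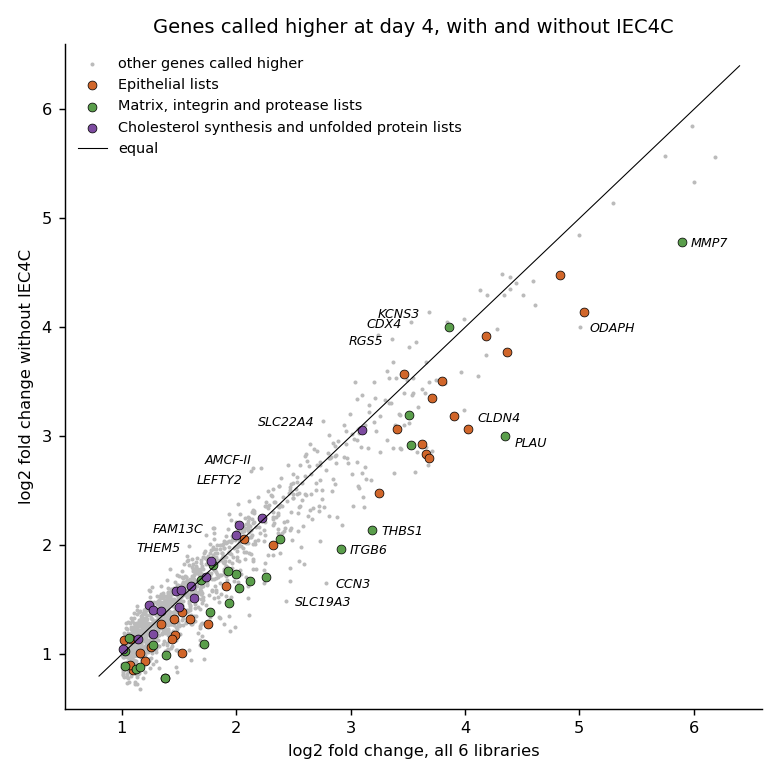
Log2 fold change of each of the 1448 genes called higher on day 4 with all 6 libraries (horizontal axis) and without IEC4C (vertical axis), with members of named lists in colour and the line of equal values. Epithelial and matrix genes such as CLDN4 (4.03 and 3.07) and PLAU (4.35 and 3.003) lie below the line, cholesterol and unfolded protein genes lie on or near it, and KCNS3 (3.69 and 4.14) lies above it.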

How the data were processed

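Cells of each stage had been made into amplified cDNA with the Smart-Seq2 protocol and sequenced on an Illumina instrument. The authors deposited 1 FPKM value per Ensembl gene and library. The submitters' processing notes name Bowtie2 2.2.3, TopHat2 2.0.12, Cufflinks 2.2.1 and the build susScr11 without roles, and any further scaling is not given in the sources used here. The number of reads is unknown. In 48.7% to 55.4% of ratios of low values between libraries the ratio was one of small whole numbers to within 0.01 log2 units, against 4.01% to 5.58% for evenly spread ratios, which gave the relative depths. FPKM are not counts, so intervals of counting error are not given, and a 0 can be a failed estimate.

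Groups came from the sample titles. Of 19681 genes, 13996 had a symbol of their own in a table of gene names, and 2128 were listed at 0 in the 6 libraries. Genes with at least 1 FPKM in at least 3 of the 6 libraries were tested with limma 3.58.1 (R 4.3.3; lmFit and eBayes with trend) on log2(FPKM + 1), a pseudocount of 1, in a fit of IEC2 and IEC4 without a block. Lists are described by counts and medians and no set test was run. Counts of members at an unadjusted p under 0.05 are given without the share of all genes at that limit. On simulated data for IEC4 against IEC2 with 10111 genes, 98 of 100 genes changed by 1.5 and 100 of 100 changed by 3 on the log2 scale were called, and 6 of 9911 unchanged genes. The changed genes were drawn from those not low in IEC2, with normal noise of equal spread in all libraries. The result thus does not cover genes near 0 on day 2 or genes with a single outlying library. Positions come from RefSeq by symbol. Tables were made with pandas 2.3.3 and NumPy 2.4.6 in Python 3.11.15, and figures with matplotlib 3.10.9.

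The genes and the 65 gene lists, written by hand, were chosen with earlier results of these data known. Named genes are the 12 largest changes in each direction with a symbol and no overlap, up to 4 called members per list with the largest change, the markers that define a cell type, the 8 called genes highest and the 8 lowest in IEC4C relative to IEC4A and IEC4B, and 8 targets of the added factors, of which 1 of the largest rises is not reported here. Others are marked or stand in counts of 5 or fewer. Patterns that collected the homeobox and tubulin families by symbol were corrected after they were seen to catch unrelated symbols. Alternatives were a replicate block, a pseudocount of 0.1, a fit of the 9 IEC libraries, no filter on low values, median-of-ratios scaling, equal FPKM totals, a variance not tied to expression, no fold limit, and each library left out.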

Additional observations from a re-analysis of the deposited data

How the results depend on the processing

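Most calls held under the alternatives. The number of genes called higher was 1291 to 1592 with each library left out in turn and the number called lower 461 to 588, both near the 1448 and 504 reported. With no fold limit 2836 genes were higher and 1379 lower, and with median-of-ratios scaling 769 were lower. Past the study's limits, 60 to 84 genes were higher and 18 to 23 lower with a library left out (60 higher without IEC2B, against 94), 232 and 42 with a pseudocount of 0.1, and 28 and 13 with no filter. The 185 genes called only with IEC4C became 342 with a pseudocount of 0.1 and 367 with no filter. The letters did not pair the libraries (correlations of deviations -0.021, 0.058 and -0.082 for A, B and C), and with the letter as a replicate block 1461 genes were higher and 509 lower. Of 243 named genes, 196 had the same sign and the same side of the call limits under every alternative run. With median-of-ratios scaling SPARC, LAMC1, COL8A1, KRT80, ND4, RAB25, ITGA6, MAN2B1, FZD7, TRIB3 and ALDH18A1 lost their calls, all with a log2 fold change of 0.84 to 1.24. LEF1, not called, turned from 0.17 to -0.03 with median-of-ratios scaling and ranged from -0.06 (without IEC2A) to 0.32 (without IEC2B) with a library left out. Ribosomal proteins called lower numbered 4 as reported, 20 without IEC4C, 21 with median-of-ratios scaling, and 9 with equal totals or without IEC2C. Lysosome genes called higher numbered 6 rather than 10 with median-of-ratios scaling. A gene near or below 1 FPKM is limited by depth, which is unknown here, and its change is understated on the log2(FPKM + 1) scale.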

Other observations

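Transporters and channels held rises besides those of SLC19A3, SLC22A4 and KCNS3 given above. Of 146 tested solute carriers 35 were called higher and 2 lower, beside 14.3% and 4.98% of all tested genes. SLC10A4, a vesicle transporter of the bile acid carrier family, had 0.01295, 0.566 and 0.443 FPKM in IEC2 and 17.1, 36.2 and 19.9 FPKM in IEC4 (log2 fold change 4.19, adjusted p = 4.33e-05). SLC25A13, the mitochondrial exchanger of aspartate and glutamate, had 8.71, 8.62 and 9.65 FPKM and 81.4, 67.6 and 66.5 FPKM (log2 fold change 2.86, adjusted p = 8.10e-06), and SLC16A12, a carrier of the monocarboxylate family, had 0.284, 0.00645 and 0.707 FPKM and 9.05, 10.2 and 9.24 FPKM (log2 fold change 3.01, adjusted p = 5.84e-05). These carriers did not overlap between stages. Without IEC4C 29 solute carriers were higher. Of 11 tested potassium channel genes 4 were higher, among them KCNJ3, a G protein-gated channel, with 0.329, 0.433 and 1.52 FPKM and 14.3, 14.8 and 8.999 FPKM (log2 fold change 2.99, adjusted p = 1.89e-04). Of 45 tested RAB GTPases 5 were higher (11.1%) and 1 lower (2.22%), both below the shares of all genes. The largest of these rises was in RAB27B, a GTPase of secretion, which had 0.00534, 0 and 0.222 FPKM and 9.53, 12.9 and 5.61 FPKM (log2 fold change 3.21, adjusted p = 1.06e-04).

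Chromatin and developmental regulators moved in both directions. Of 22 tested polycomb and trithorax genes 2 were higher and 2 lower (9.09% each, beside 14.3% and 4.98% of all genes). KDM5A, a histone demethylase, had 3.75, 5.92 and 6.05 FPKM and 16.1, 13.6 and 9.699 FPKM (log2 fold change 1.17, adjusted p = 0.00519), and ASH2L, of the trithorax methyltransferase complexes, had 5.58, 6.24 and 7.43 FPKM and 14.6, 15.3 and 14.2 FPKM (log2 fold change 1.09, adjusted p = 0.00116). Both lost their calls with median-of-ratios scaling (0.98 and 0.89), and KDM5A also without IEC2A (0.99). EZH2, the polycomb methyltransferase, had 11.2, 16.1 and 15.3 FPKM and 3.34, 6.08 and 4.76 FPKM (log2 fold change -1.42, adjusted p = 0.00179), and JARID2, its cofactor, had 10.9, 9.92 and 10.01 FPKM and 2.48, 3.98 and 5.28 FPKM (log2 fold change -1.24, adjusted p = 0.00365). DNMT3B, a DNA methyltransferase of early embryonic cells, had 0.285, 0.664 and 0.486 FPKM and 4.63, 4.22 and 2.41 FPKM (log2 fold change 1.66, adjusted p = 0.00116). H1-3, a linker histone, had 241, 234 and 328 FPKM and 83.3, 39.3 and 33.5 FPKM (log2 fold change -2.44, adjusted p = 5.75e-04). Among 13 tested HOX genes 1 was higher and 1 lower (7.69% each, beside 14.3% and 4.98% of all genes). Their median log2 fold change was -0.26, beside 0.20 over all genes. Without overlap 7 of the 13 lay lower in IEC4 and 1 higher, against 18.3% and 36.1% of all tested genes. HOXB13, a posterior gene, had 2.98, 7.43 and 3.85 FPKM and 41.7, 31.9 and 25.6 FPKM (log2 fold change 2.61, adjusted p = 3.11e-04), and HOXD8 had 38.4, 27.7 and 29.6 FPKM and 13.1, 11.97 and 12.4 FPKM (log2 fold change -1.27, adjusted p = 4.79e-04). MEIS2, a cofactor of HOX proteins, had 26.6, 29.95 and 31.3 FPKM and 10.5, 6.61 and 7.196 FPKM (log2 fold change -1.76, adjusted p = 2.29e-04), and RHOJ, a small GTPase known from endothelium, had 15.6, 21.3 and 24.5 FPKM and 1.79, 1.49 and 2.16 FPKM (log2 fold change -2.92, adjusted p = 4.31e-05). In each of these genes the libraries of the stages did not overlap, and each call was also made without IEC4C.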
